A study of Mus musculus with 12 samples.

Results

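Cytochrome P450 enzymes of families 1 to 4 were followed in the mouse olfactory epithelium over 2 circadian cycles. Every gene whose symbol begins with Cyp, a family number from 1 to 4 and a subfamily letter was taken, which gave 69 of 19937 genes measured by a probe with 1 gene symbol. The 69 genes comprised 3 of family 1, 44 of family 2, 6 of family 3 and 16 of family 4, and 3 of them (Cyp2d13, Cyp2d37-ps and Cyp4f41-ps) are annotated as pseudogenes. Each gene had 1 probe. A further 9 symbols of these families, Cyp2a5 among them, occurred only on 7 probes that list several genes, and those probes are described apart.

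All animals were male C57BL/6 mice, with no stated mutation and no stated age, kept in a 12 h light and 12 h dark cycle for 14 days or longer and then moved to constant darkness. Olfactory epithelium from both sides was taken every 4 h from circadian time (CT) 12 to CT56, and RNA of 4 mice was pooled for each of the 12 time points, 48 mice in all, on 1 array per pool. The 6 pools of the subjective night, the active phase of a mouse, were CT12, CT16, CT20, CT36, CT40 and CT44, and the 6 pools of the subjective day were CT24, CT28, CT32, CT48, CT52 and CT56. The second cycle comprised CT36 to CT56 and the first CT12 to CT32, so that each of 6 phases had 2 pools, 24 h apart. A pool shows no spread between mice, and p-values measure the spread between pools. The tissue was not sorted, so fewer cells of a type and less RNA per cell cannot be told apart.

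P450s are haem-containing monooxygenases of the endoplasmic reticulum that take electrons from cytochrome P450 reductase and, for some reactions, from cytochrome b5. Families 1 to 3 are known mainly for oxidising foreign compounds and steroids, and family 4 for hydroxylating fatty acids. In the olfactory mucosa these enzymes are known from the sustentacular (supporting) cells and Bowman's glands, where they act on inhaled chemicals and odorants. In mouse liver several P450 transcripts follow the clock through the PAR bZIP factors DBP, TEF and HLF, and Cyp2a4 and Cyp2a5 are the classic targets of DBP.

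The starts of bright P450s of this tissue, and of Cyp2b10, the gene with the widest range over pools, are shown first because they hold, or lack, the letters that clock and xenobiotic factors are known to bind. Each sequence is from RefSeq (GRCm38.p6) and runs 5′ to 3′ on the gene's strand from 250 bases before the start to 50 bases after it. The regions are chr7:27119705-27120004 (plus strand) for Cyp2f2, chr9:57683606-57683905 (minus strand) for Cyp1a2, chr9:57697363-57697662 (plus strand) for Cyp1a1, chr7:26835089-26835388 (plus strand) for Cyp2a5 and chr7:25897408-25897707 (plus strand) for Cyp2b10. Capitals mark TATAAA (the TATA box), GCGTG or its reverse complement CACGC (the core bound by the aryl hydrocarbon receptor) and TTGCATAA.
Cyp2f2: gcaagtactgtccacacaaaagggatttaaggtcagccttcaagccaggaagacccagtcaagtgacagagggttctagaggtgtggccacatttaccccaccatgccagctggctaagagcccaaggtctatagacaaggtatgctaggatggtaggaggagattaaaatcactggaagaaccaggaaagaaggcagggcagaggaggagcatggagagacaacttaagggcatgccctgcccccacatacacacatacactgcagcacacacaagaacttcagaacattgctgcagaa
Cyp1a2: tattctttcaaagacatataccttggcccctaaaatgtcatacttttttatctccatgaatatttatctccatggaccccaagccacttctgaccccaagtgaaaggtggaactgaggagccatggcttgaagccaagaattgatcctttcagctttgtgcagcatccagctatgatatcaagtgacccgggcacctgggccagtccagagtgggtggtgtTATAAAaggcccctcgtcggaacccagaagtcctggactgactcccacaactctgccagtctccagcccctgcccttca
Cyp1a1: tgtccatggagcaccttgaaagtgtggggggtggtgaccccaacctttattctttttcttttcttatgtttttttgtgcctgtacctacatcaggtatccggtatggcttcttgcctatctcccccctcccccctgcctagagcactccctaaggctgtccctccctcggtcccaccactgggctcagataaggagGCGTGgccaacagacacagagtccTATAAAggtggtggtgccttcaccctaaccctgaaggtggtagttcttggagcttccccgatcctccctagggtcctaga
Cyp2a5: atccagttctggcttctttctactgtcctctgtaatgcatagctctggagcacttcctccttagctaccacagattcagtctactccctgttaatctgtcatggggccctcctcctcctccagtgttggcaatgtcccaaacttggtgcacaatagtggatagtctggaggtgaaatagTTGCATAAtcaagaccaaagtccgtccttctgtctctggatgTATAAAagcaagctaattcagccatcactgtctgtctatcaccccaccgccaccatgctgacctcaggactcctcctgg
Cyp2b10: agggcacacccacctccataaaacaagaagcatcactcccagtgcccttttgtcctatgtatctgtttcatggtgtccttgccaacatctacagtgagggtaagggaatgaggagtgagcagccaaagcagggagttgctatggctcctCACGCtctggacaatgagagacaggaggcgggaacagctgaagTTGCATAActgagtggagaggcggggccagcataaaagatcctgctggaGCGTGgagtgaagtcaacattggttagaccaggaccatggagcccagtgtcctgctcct

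Of the 69 genes, 53 had an entry in the promoter table. The D-box letters TTATGTAA and TTACGTAA, the best-known binding sequences of the PAR bZIP factors, were searched on both strands and stood in 0 of these 53 genes, against 0.938% (TTATGTAA) and 0.119% (TTACGTAA) of 32851 promoters. The E-box CACGTG stood in 1 of the 53 genes, Cyp2j6, against 7.15% of promoters. GCGTG stood in 12 of the 53 genes (22.6%), Cyp1a1 and Cyp2b10 among them, against 32.4% of promoters, and TATAAA in 22 (41.5%), against 13.6%. TTGCATAA was added after these sequences had been read and stood in Cyp2a5 and in 4 of the 53 genes (Cyp2b10, Cyp2b19, Cyp2b23 and Cyp4f14), against 0.743% of promoters. Cyp2a5 and Cyp2b10 are among the sequences read, and Cyp2b10, Cyp2b19 and Cyp2b23 are of 1 subfamily. No excess is therefore read from this count. None of these motifs overlaps another in the sequences printed. A match says only that the letters are present. The window of Cyp2a5 was identical to that of Cyp2a4 at 294 of 299 aligned bases, and the starts of Cyp1a2 and Cyp1a1, which run away from each other, lay 13958 bases apart.

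The data placed a few P450s among the brightest genes of the tissue and most of the others among the dim ones. Signals are the deposited log2 values, and since a probe's brightness also depends on its own sequence, the place of a gene's mean among all genes is a description and not an order of transcript amounts. Of the 69 genes, 4 lay in the top 5% of all genes, 7 between the 75th and 95th percentile, 7 between the 50th and 75th, and 51 below the 50th, of which 35 lay below the 25th. The 50th and 95th percentiles stood at 8.18 and 10.62.

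**Figure D1:**
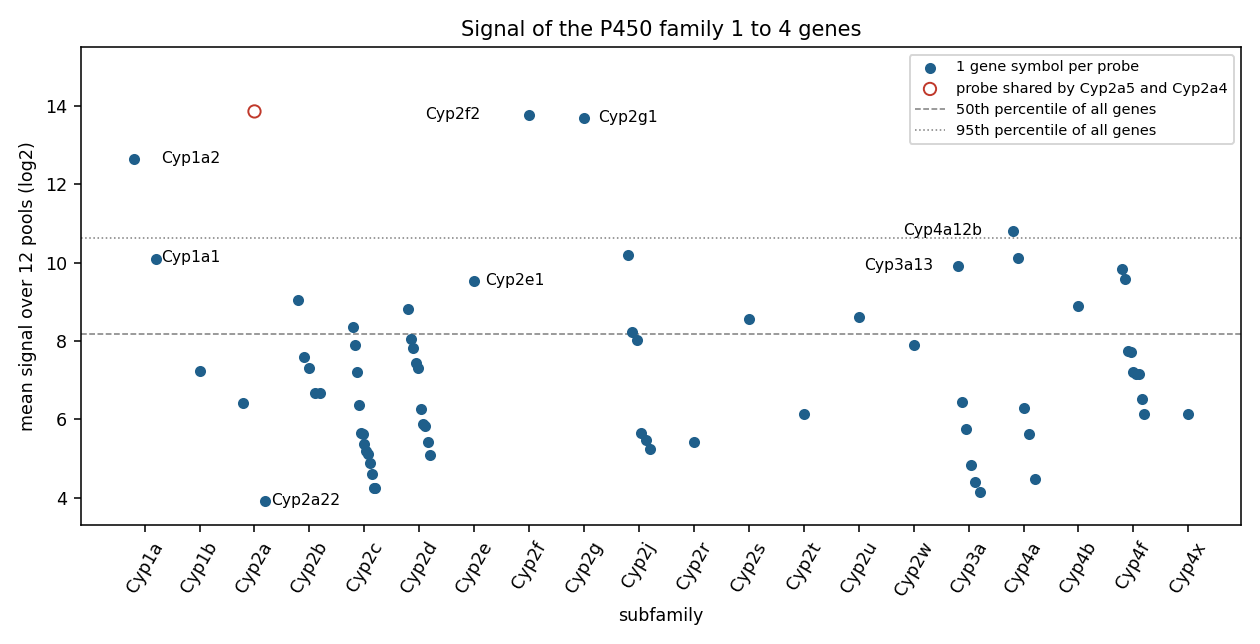
Mean log2 signal over 12 pools (vertical axis) of the 69 P450 genes, 1 point each, by subfamily, with the probe shared by Cyp2a5 and Cyp2a4 as an open circle and the 50th and 95th percentiles of all genes as lines. Cyp2f2 (13.77), Cyp2g1 (13.70) and Cyp1a2 (12.64) stand far above the upper line, Cyp4a12b (10.82) just above it, and the Cyp2c and Cyp3a subfamilies mostly below the lower line.

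Cyp2f2, which oxidises naphthalene and is known from airway epithelium, was the fifth brightest gene. Its signal was 13.81, 13.77, 13.81, 13.81, 13.73 and 13.74 in the night pools, in order of time, and 13.82, 13.81, 13.79, 13.79, 13.72 and 13.68 in the day pools. The pools overlapped fully, with a mean of 13.77 ± 0.04 (SD, n = 12 pools) and a range of 0.13.

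Cyp2g1, an olfactory P450 that oxidises sex steroids, was the ninth brightest gene. It had 13.79, 13.72, 13.68, 13.74, 13.66 and 13.67 in the night pools and 13.74, 13.72, 13.65, 13.72, 13.65 and 13.64 in the day pools. The range over all 12 pools was 0.14, or 1.10-fold. For scale, the 3 P450s in the top 1% of genes had ranges of 0.13 (Cyp2f2), 0.14 (Cyp2g1) and 0.30 (Cyp1a2). Over all 199 genes of that class the median range was 0.31 and the smallest 0.06. The highest value on the arrays was 14.47. Whether signals near it, such as those of Cyp2f2, Cyp2g1 and the Cyp2a5 probe, can show a change in full was not tested.

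Cyp1a2, which metabolises aromatic amines and caffeine and is best known from liver, had a mean of 12.64 ± 0.09 (SD, n = 12 pools). The values were 12.75, 12.65, 12.61, 12.76, 12.69 and 12.58 in the night pools and 12.61, 12.60, 12.61, 12.78, 12.53 and 12.47 in the day pools. Its highest pool was CT48, a day pool, and its lowest CT56, also of the day. Cyp4a12b, a fatty acid hydroxylase known to be higher in males in mouse kidney and liver, had 10.90, 10.63, 10.85, 11.00, 11.00 and 10.91 in the night pools and 10.82, 10.76, 10.60, 10.90, 10.45 and 10.96 in the day pools. Its near-identical neighbour Cyp4a12a lay at the 90.5th percentile with a mean of 10.11, and both were lowest at CT52 (10.45 for Cyp4a12b and 9.62 for Cyp4a12a). Probes of such close copies may take up each other's transcripts.

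Cyp2a5, which oxidises coumarin and is known as an olfactory P450, shares its probe with Cyp2a4, a steroid hydroxylase, so the signal cannot be given to either gene. Of all 34760 probes, 13 were brighter. It had 13.91, 13.83, 13.83, 13.92, 13.89 and 13.85 in the night pools and 13.89, 13.82, 13.84, 13.90, 13.85 and 13.85 in the day pools. The range was 0.10, and the amplitude of a 24 h curve was 0.01 ± 0.04 (SE, 12 pools). Among the 13120 probes without 1 symbol, which were fitted apart, its night minus day difference was 0.01 ± 0.05 (limma, adjusted p = 0.931). The other 6 shared probes had means between 4.42 (Cyp3a41b, Cyp3a44 and Cyp3a41a) and 8.63 (Cyp4v3 with the neighbouring gene Klkb1).

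**Figure D2:**
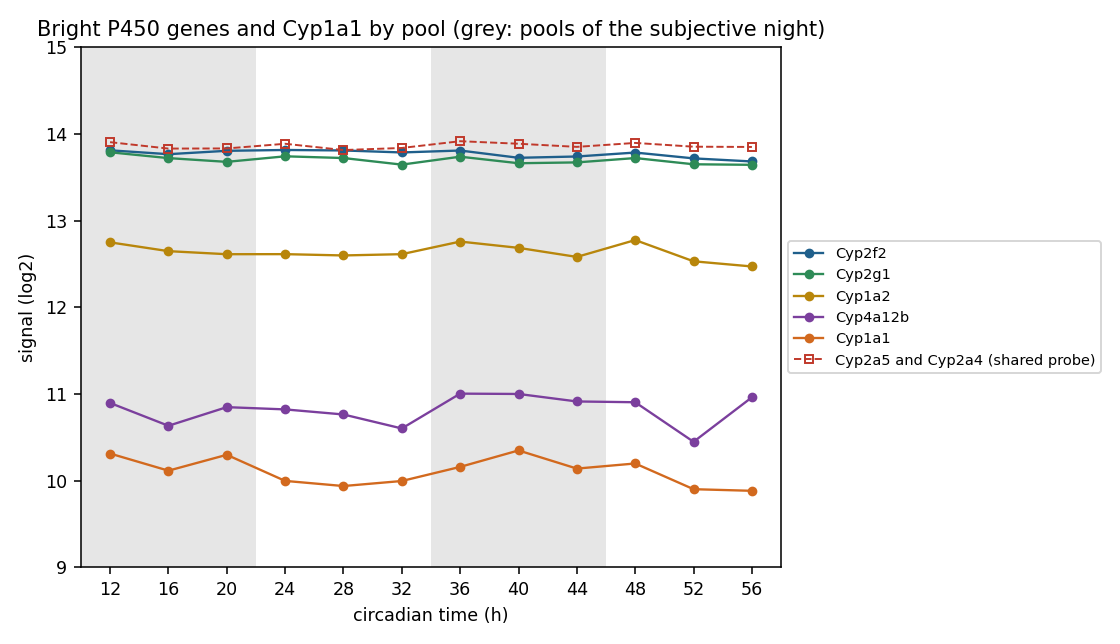
Log2 signal (vertical axis) of Cyp2f2, Cyp2g1, Cyp1a2, Cyp4a12b, Cyp1a1 and the probe shared by Cyp2a5 and Cyp2a4 at each circadian time in h (horizontal axis), 1 pool per point, with the night pools shaded. The 3 uppermost lines stay within ranges of 0.10 to 0.14, while Cyp4a12b dips to 10.45 at CT52 and Cyp1a1 lies between 9.88 and 10.35.

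The remaining genes above the 75th percentile were Cyp2j6 (10.19), an epoxygenase of arachidonic acid, Cyp1a1 (10.11), the hallmark target of the aryl hydrocarbon receptor, Cyp3a13 (9.91), Cyp4f15 (9.84), Cyp4f13 (9.60) and Cyp2e1 (9.53), the ethanol-inducible P450. Between the 50th and 75th percentile lay Cyp2b10, Cyp4b1, Cyp2d22, Cyp2u1, Cyp2s1, Cyp2c37 and Cyp2j9. Within the large subfamilies 1 of 13 Cyp2c genes, 1 of 10 Cyp2d genes, 2 of 9 Cyp4f genes, 2 of 6 Cyp2j genes, 1 of 6 Cyp3a genes and 2 of 5 Cyp4a genes lay above the 50th percentile. Cyp1b1, a P450 of connective tissue and other extrahepatic cells, had a mean of 7.25. Enzymes known from liver did not stand at one level. Cyp3a11 (4.16), Cyp2c29 (5.19) and Cyp2c50 (5.12) lay below the 4th percentile, whereas Cyp1a2 (12.64) lay in the top 5%.

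Bright and dim P450s lay on the same chromosomes. Genes are given in order of their starts, without regard to the distance between them. On chromosome 7 the 13 genes measured alone run in the order Cyp2s1, Cyp2b10, Cyp2b13, Cyp2b9, Cyp2b23, Cyp2b19, Cyp2g1, Cyp2a22, Cyp2a12, Cyp2f2, Cyp2t4, Cyp2r1 and Cyp2e1. Cyp2a4 and Cyp2a5, which share a bright probe and are not among the 69, also have a place in this order. Cyp2a4 comes between Cyp2b9 and Cyp2b23, and Cyp2a5 between Cyp2g1 and Cyp2a22. Cyp2a22 was the dimmest of the 69 genes (3.92 ± 0.07, SD, n = 12 pools), and Cyp2a12 (6.41), a liver steroid hydroxylase, precedes Cyp2f2. Of the 13 Cyp2c genes on chromosome 19, 10 lay below the 25th percentile, and of the 10 Cyp2d genes on chromosome 15, 5 did. Both Cyp1a genes of chromosome 9 lay above the 90th percentile.

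Markers of sensory neurons and supporting cells were bright, and those of liver, the organ best known for these enzymes, were dim. All 8 markers of mature sensory neurons lay in the top 5% of genes (Omp, the olfactory marker protein, had a mean of 12.89), and so did 5 of 8 sustentacular markers, such as Cbr2 (13.67), Sult1c1 (13.18) and Sec14l3 (12.81). None of 9 hepatocyte markers lay above the 50th percentile (Alb, serum albumin, 6.21). Respiratory markers were bright in part. Of 6 respiratory secretory markers, 2 lay in the top 5% (highest mean 13.61), and all 10 markers of motile respiratory cilia lay above the 50th percentile. The share of respiratory tissue in the pools was not measured. Of 12 markers of Bowman's and nasal glands, 6 lay in the top 5%, and their mean per pool spanned 9.49 at CT12 to 11.42 at CT44, the widest span of the 12 marker lists, against 0.15 for the sustentacular list. The span came mostly from 5 genes. Bpifb9b, Bpifb9a, Obp2a, Obp1a and Ltf had ranges of 7.19, 5.55, 5.10, 4.87 and 2.52, whereas Sox9, Bpifb4, Muc5b and Aqp5 had ranges of 0.36, 0.36, 0.40 and 0.47. Of the arrays, CT56 had the lowest mean correlation with the others (0.975), followed by CT32 (0.981).

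The first question was whether any P450 follows a 24 h rhythm, asked with a cosine and a sine of 24 h fitted to all 12 pools with limma. None of the 69 genes passed an adjusted p of 0.05 (Benjamini-Hochberg over 19937 genes), where 0.0251% of all genes did (5 genes, with amplitudes from 0.35 to 0.56). The smallest adjusted p among the P450s was 0.857, for Cyp2s1. At an unadjusted p under 0.05 there were 6 of 69 P450s, against 3.54% of all genes. The amplitude, in log2 units from the midline of the fitted curve to its top, had a median of 0.07 over the 69 genes and of 0.06 over all genes, and the largest among the P450s was 0.26. Dbp, the clock-driven factor that controls P450s in liver, reached 0.51 ± 0.05 (SE, 12 pools) on the same arrays, with its top at CT 7.8 (limma, adjusted p = 0.00173).

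The bright olfactory P450s gave small amplitudes. For Cyp2f2 it was 0.01 ± 0.04, Cyp2g1 of 0.01 ± 0.04, Cyp1a2 of 0.05 ± 0.04 and Cyp4a12b of 0.10 ± 0.06 (SE, 12 pools each). An amplitude cannot be below 0, so a value of about its own error says little about a peak time. Cyp4a10 and Cyp4a14, fatty acid hydroxylases known to cycle in mouse liver, had amplitudes of 0.07 ± 0.06 and 0.07 ± 0.05 and lay at 5.62 and 6.28, below the 25th percentile.

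Among the 6 P450s with an unadjusted p under 0.05, none kept to the threshold after adjustment, and their values follow as a description. Cyp2s1, an extrahepatic P450 of epithelia known in human to act on retinoids, had 8.59, 8.32, 8.53, 8.65, 8.28 and 8.25 in the night pools and 8.59, 8.85, 8.99, 8.46, 8.53 and 8.65 in the day pools. CT32 was its highest pool and CT44 its lowest, and the groups overlapped. The fitted curve peaked at CT 6.6, 0.24 ± 0.06 above its midline (SE, 12 pools).

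Cyp2j12, an epoxygenase-family gene of chromosome 4, had 8.17, 7.87, 7.89, 7.93, 7.87 and 7.95 in the night pools and 8.02, 8.22, 8.41, 7.91, 7.99 and 8.23 in the day pools. Its 2 highest pools were CT32 and CT56, the pools of phase 8 h. The amplitude was 0.19 ± 0.05, the curve having its top at CT 7.2 (limma, adjusted p = 0.946). Cyp4f15, of a subfamily known for hydroxylating leukotrienes and fatty acids, had 9.90, 9.68, 9.75, 9.67, 9.58 and 9.75 in the night pools and 9.89, 9.81, 10.16, 9.91, 9.83 and 10.14 in the day pools. CT32 and CT56 were again the highest, and pools of the same phase differed by 0.06 on average. The amplitude was 0.17 ± 0.05, and the top fell at CT 5.9 (limma, adjusted p = 0.996). CT32 and CT56, which make up the phase 8 h, were also the 2 arrays with the lowest correlation with the others. Without CT32 the amplitudes of Cyp2s1, Cyp2j12 and Cyp4f15 were 0.20, 0.15 and 0.14, and without CT56 0.27, 0.19 and 0.14. Markers of motile respiratory cilia were mostly high in the same pools. Of 10 such markers, 4 were highest at CT32 and 5 at CT56, but 1 (Ccdc40) was lowest at CT56. Of the 10 markers, 0 averaged higher at night. At an unadjusted p under 0.05, 6 were lower at night, where 5.69% of all genes were, and 0 passed the adjusted threshold. Their mean per pool lay between 8.91 and 9.09 at night and between 8.99 and 9.30 in the day. Their part in these courses was not tested.

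Cyp1a1 ran the other way. It had 10.31, 10.12, 10.30, 10.16, 10.35 and 10.14 in the night pools and 10.00, 9.94, 10.00, 10.20, 9.90 and 9.88 in the day pools. Only the CT48 pool of the day reached into the night values. Its amplitude was 0.18 ± 0.05, and the curve peaked at CT 16.9 (limma, adjusted p = 0.996). Its divergent neighbour Cyp1a2 had a fitted peak at CT 15.9, with an amplitude of about its standard error.

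Cyp2e1 had the largest fitted amplitude of the 69 genes, 0.26 ± 0.09 around a peak at CT 20.2 (limma, adjusted p = 0.996), and also one of the widest ranges. Its night values were 9.35, 9.22, 9.67, 9.47, 9.76 and 10.13 and its day values 9.55, 9.44, 9.31, 9.87, 9.04 and 9.49. Cyp2c23, which makes epoxides of arachidonic acid in mouse kidney, had 8.10, 7.93, 7.91, 8.10, 7.92 and 7.62 in the night pools and 7.83, 7.73, 8.12, 7.91, 7.75 and 7.96 in the day pools, and its curve peaked at CT 11.4 with an amplitude of 0.15 ± 0.05. In both genes the night and day values overlapped over most of their span.

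**Figure D3:**
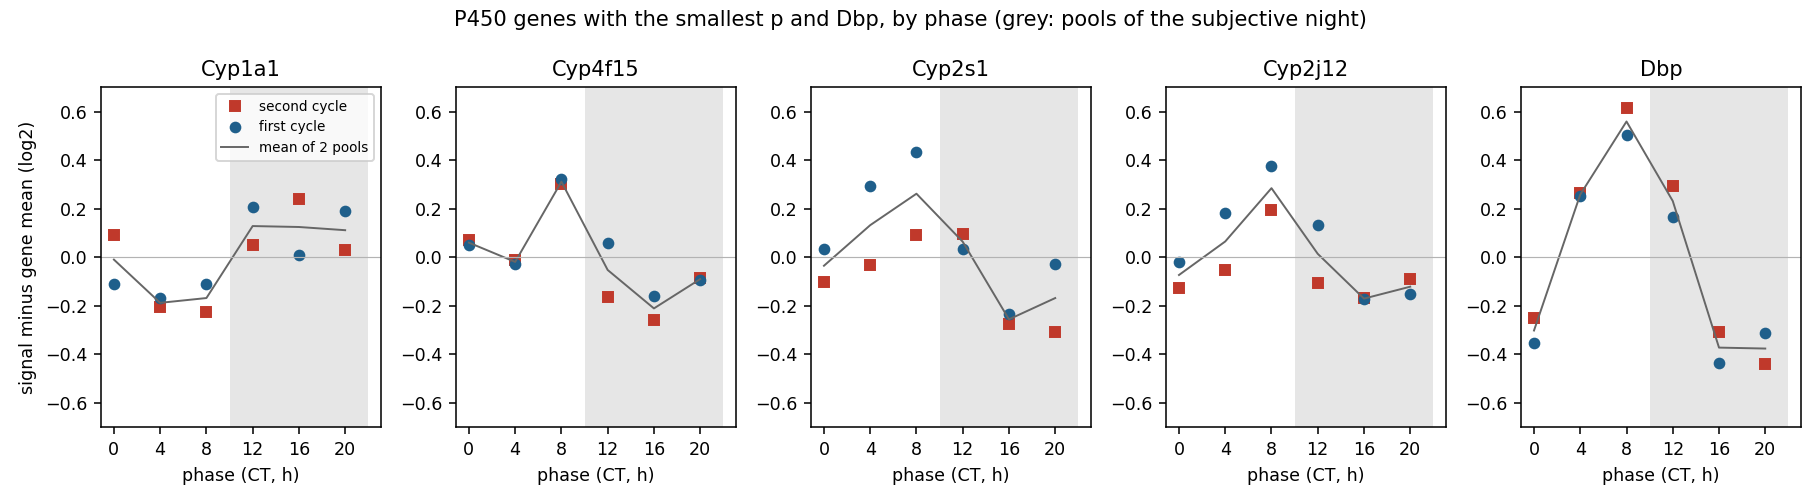
Log2 signal minus each gene's mean (vertical axis) by phase of the day in CT hours (horizontal axis) for Cyp1a1, Cyp4f15, Cyp2s1, Cyp2j12 and, for scale, Dbp, with squares for the second and circles for the first cycle, a line through the means of the 2 pools and the night phases shaded. The 2 pools of a phase lie close together for Cyp4f15 and Dbp and farther apart for Cyp2s1, and Dbp spans 1.05 where the P450s span 0.47 to 0.74.

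The subjective night was then compared with the subjective day over 6 pools each. None of the 69 P450s passed the adjusted threshold in limma, nor did any of all genes (0%), and the smallest adjusted p was 0.497. At an unadjusted p under 0.05, 4 P450s were higher at night, where 4.17% of all genes were, and 3 were lower, where 5.69% were. The night and day values did not overlap in 0 of 69 P450s and in 0.231% of all genes. Regardless of p, 43 of the 69 genes (62.3%) averaged higher at night, against 48.5% of all genes, and the median difference was 0.03, against 0.00 over all genes. Of the 69 genes, 51 lay below the 50th percentile, so all genes are no background of matched brightness. The share among dim genes at large was not counted, and no trait of P450s is read from these values.

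Cyp1a1 averaged 10.23 at night and 9.99 in the day, a difference of 0.24 ± 0.07 (SE) or 1.18-fold (limma, adjusted p = 0.497). Cyp4f15 averaged 9.72 at night and 9.96 in the day, a difference of -0.24 ± 0.08. For Cyp2s1 the means were 8.44 at night and 8.68 in the day, and for Cyp2j12 7.95 at night and 8.13 in the day. The 24 h fit rests on the same 12 pools, so it is no separate evidence for these differences.

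The other P450s past the unadjusted threshold were dim. Cyp2d9, known in mouse liver as a male-specific steroid hydroxylase, had 5.66, 5.98 and 6.09 as its lowest, median and highest night values and 5.47, 5.72 and 5.96 as the day values, a difference of 0.22 ± 0.09 (SE). The pseudogene Cyp2d13 differed by 0.21 ± 0.09 and Cyp2b23 by 0.16 ± 0.08, with overlapping values in both. Cyp2d genes averaged higher at night in 8 of 10 cases, with a median difference of 0.11. Cyp4a genes, 2 of them above the 50th percentile, did so in 5 of 5, with 0.13. The counts were 6 of 13 for Cyp2c, 5 of 9 for Cyp4f, 3 of 6 for Cyp2j, 3 of 6 for Cyp3a and 3 of 5 for Cyp2b. Of all genes, 48.5% averaged higher at night. The dim hepatocyte markers also averaged higher at night, in 9 of 9 cases with a median difference of 0.11. Of the 51 P450s below the 50th percentile, 17 were highest at CT36 and 10 at CT52, and 17 were lowest at CT48. The median deviation of these 51 genes from their means was 0.12 at CT36, 0.10 at CT52 and -0.12 at CT48. Over all 9968 genes of that class it was 0.12, 0.09 and -0.13, so in these pools the dim P450s moved with dim genes at large. They did so less at CT56, with -0.005 against -0.073, and at CT28, with 0.006 against 0.039.

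**Figure D4:**
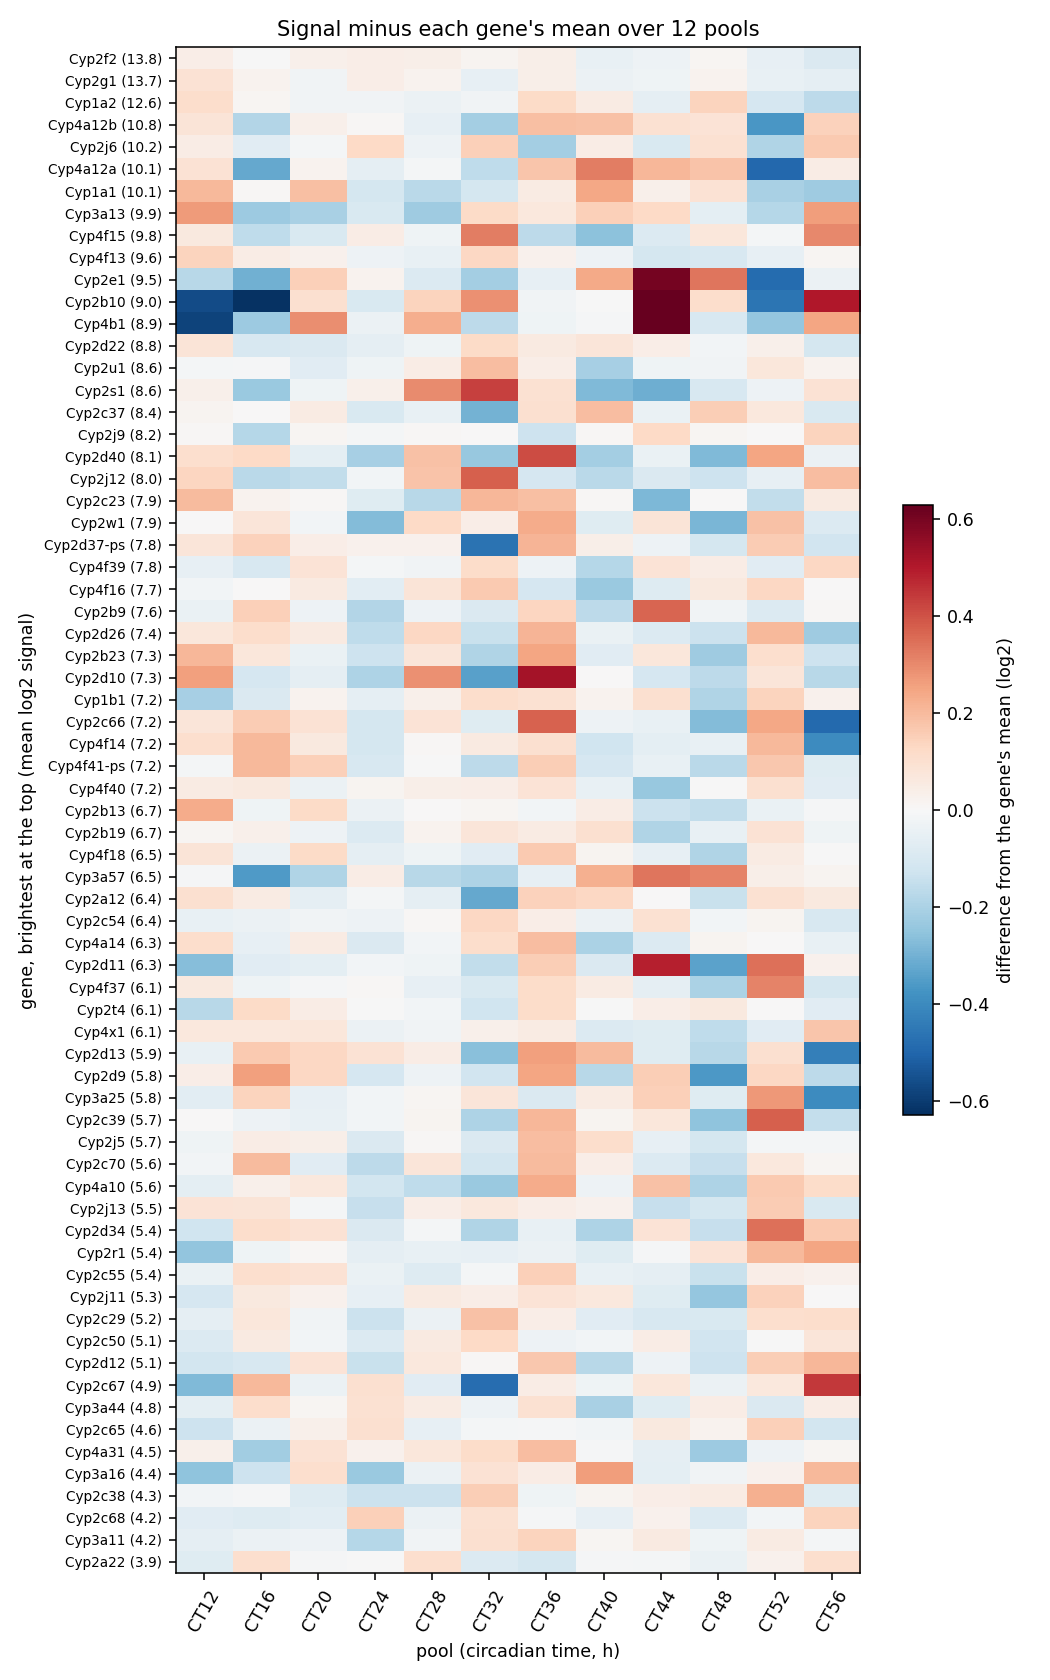
Log2 signal minus each gene's mean over 12 pools (colour) for the 69 P450 genes (rows, brightest at the top, with the mean signal in brackets) in each pool (columns, by circadian time in h). The uppermost rows are nearly blank, Cyp2e1, Cyp2b10 and Cyp4b1 share a dark cell at CT44, and the lower rows are mostly red at CT36 and CT52 and blue at CT48.

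Values of the second cycle were set against those of the first, phase by phase, to see whether levels drifted over the 2 days. No P450 passed the adjusted threshold in limma (0% of all genes), and the smallest adjusted p was 0.304. At an unadjusted p under 0.05, 2 P450s were higher in the second cycle (4.22% of all genes) and 1 was lower (8.94% of all genes). The values of the cycles did not overlap in 0 of 69 P450s and in 1.01% of all genes. The median difference was 0.00 over the P450s and -0.03 over all genes. Cyp2f2 and Cyp2g1 were each higher in the second cycle in 0 of 6 phases. Their differences were small, -0.06 ± 0.05 and -0.04 ± 0.05 (SE, limma, adjusted p = 0.652 and 0.794). Regardless of p, 61.7% of all genes were lower in the second cycle.

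Cyp3a57, a dim member of the Cyp3a cluster, had 6.40, 6.68, 6.79, 6.77, 6.49 and 6.47 in the second cycle and 6.45, 6.10, 6.27, 6.50, 6.28 and 6.26 in the first. It was higher in the second cycle in 5 of 6 phases, and the difference was 0.29 ± 0.08 (SE) or 1.22-fold (limma, adjusted p = 0.304). Another probe that lists Cyp3a57 with Cyp3a59 and Cyp3a25 differed by 0.09 ± 0.07. Cyp2r1, a vitamin D 25-hydroxylase, averaged 5.49 in the second cycle and 5.35 in the first, and Cyp2s1 8.47 in the second and 8.65 in the first. The differences for Cyp4a10, Cyp2c37 and Cyp3a16, the next by p, were 0.16, 0.12 and 0.15, with unadjusted p above the threshold.

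Over the 12 pools the P450s varied about as much as other genes. The median range was 0.42 over the 69 genes and 0.46 over all genes, and 3 P450s (4.35%) spanned more than 1 log2 unit, against 2.82% of all genes. Pools of the same phase differed by 0.13 in the median P450 and by 0.14 in the median gene.

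The widest range was that of Cyp2b10, the phenobarbital-inducible P450 that reports activity of the receptor CAR. It had 8.47, 8.42, 9.14, 9.02, 9.04 and 9.67 in the night pools and 8.95, 9.18, 9.33, 9.15, 8.58 and 9.54 in the day pools, a range of 1.25 or 2.38-fold, with pools of the same phase 0.45 apart on average. CT44 was highest and CT12 and CT16 lowest. Cyp4b1, known for activating furan protoxins, had 8.31, 8.66, 9.18, 8.86, 8.88 and 9.52 in the night pools and 8.85, 9.12, 8.72, 8.79, 8.65 and 9.14 in the day pools. It too was highest at CT44 and lowest at CT12. Cyp2e1 spanned 1.09, highest at CT44 and lowest at CT52.

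Cyp2b10 and Cyp4b1 went together over the 12 pools, with Pearson r = 0.82 (permutation test, two-sided, p = 0.00132, adjusted 0.0198 over 15 pairs) and Spearman rho = 0.72 (permutation p = 0.0107, adjusted 0.0727), and r = 0.74 without CT12 and CT16. The other 14 pairs among the 6 genes with the widest range did not pass. The mean of the 12 gland markers was also highest at CT44 and lowest at CT12, although only 5 of its genes were highest at CT44 and 3 lowest at CT12. Bpifb4, for example, had 13.03 at CT44 and 13.24 at CT12. Its correlation with Cyp2b10 was r = 0.73 (permutation p = 0.00671, adjusted 0.0805 over 24 relations) and rho = 0.70 (permutation p = 0.0137, adjusted 0.165), and r = 0.55 without CT32 and CT44. With Cyp4b1 it was r = 0.64 (permutation p = 0.0249, adjusted 0.0997) and rho = 0.39 (permutation p = 0.208, adjusted 0.42), and r = 0.61 without those pools. With Cyp2e1 it was r = 0.39 (permutation p = 0.211, adjusted 0.421) and rho = 0.20 (permutation p = 0.544, adjusted 0.726), and r = 0.06 without those pools. The mean of the respiratory secretory markers went with Cyp4b1 at r = 0.66 (permutation p = 0.02, adjusted 0.0997) and rho = 0.61 (permutation p = 0.0396, adjusted 0.238), and r = 0.35 without CT12 and CT16. For Cyp2b10 and that list r was 0.64 (permutation p = 0.0226, adjusted 0.0997) and rho 0.48 (permutation p = 0.121, adjusted 0.416), and r was 0.17 without CT12 and CT16. None of these relations with tissue markers passed after adjustment, and the part of gland or respiratory tissue in these courses was not tested.

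The other wide ranges belonged to dimmer genes. Cyp2c67 spanned 0.93, with 4.41 at CT32 and 5.33 at CT56. Cyp2d10 spanned 0.87, with 6.97 at CT32 and 7.84 at CT36. Cyp2c66, a P450 of the intestine, spanned 0.86, with 7.59 at CT36 and 6.73 at CT56. For Cyp2c66 the 25th percentile of all probes on the array ran along, with r = 0.77 (permutation p = 0.00401, adjusted 0.0805 over 24 relations) and rho = 0.88 (permutation p = 0.00032, adjusted 0.00768), and r = 0.59 without CT36 and CT48. The part of the array in this course was not tested.

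**Figure D5:**
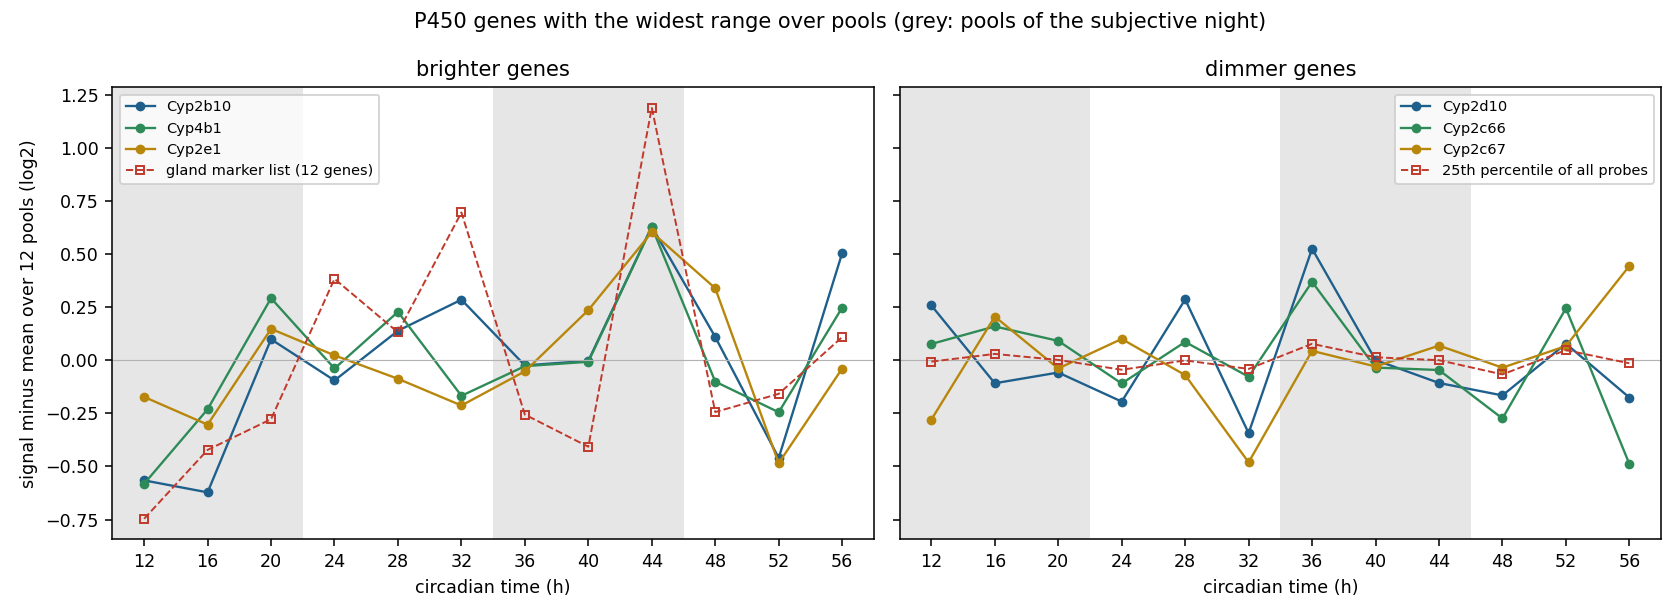
Log2 signal minus the mean over 12 pools (vertical axis) by circadian time in h (horizontal axis) for Cyp2b10, Cyp4b1 and Cyp2e1 with the mean of 12 gland markers (left) and for Cyp2d10, Cyp2c66 and Cyp2c67 with the 25th percentile of all probes of the array (right), the night pools shaded. The 3 genes on the left and the mean of the gland markers share their highest pool, CT44.

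Partners of the P450s likewise gave no rhythm past the threshold, apart from Dbp. Por, the reductase, is not analysed here, since it has no probe with 1 symbol. Of 7 redox partners measured, 4 lay in the top 5% of genes and 0 passed the adjusted threshold in any of the 3 fits. Cyb5a, cytochrome b5, had a mean of 12.99 and a 24 h amplitude of 0.02, and its difference between the second and the first cycle was 0.14 (limma, adjusted p = 0.318). All 7 genes of haem synthesis lay above the 50th percentile, and 0 passed. Alas1, the rate-limiting enzyme of haem synthesis, had a mean of 11.50 and an amplitude of 0.09 around CT 16.4 (limma, adjusted p = 0.996). Ppox, which makes protoporphyrin, had an amplitude of 0.15 around CT 7.8, and differed by -0.15 between the second and the first cycle, as did Cpox, and neither passed after adjustment. None of the 4 genes of haem breakdown passed.

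Of 11 xenobiotic receptors and partners, 0 passed and 1 lay in the top 5%. Ahr, the receptor behind Cyp1a1, had a mean of 9.50, an amplitude of 0.04 and a night minus day difference of -0.05. Its repressor Ahrr, also a target of the receptor, averaged 6.50 at night and 6.34 in the day (limma, adjusted p = 0.497). Tiparp, a further target, differed by -0.13 between night and day and by 0.20 between the second and the first cycle, with no call. Nr1i2 (PXR, which controls Cyp3a genes) and Nr1i3 (CAR, which controls Cyp2b10) lay at 7.04 and 6.67, with amplitudes of 0.09 and 0.01, and Rxra, their partner, differed by -0.14 between the cycles with no call.

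Among the 4 PAR bZIP genes and their antagonist, 1 passed in the 24 h fit. Dbp had 9.46, 8.86, 8.98, 9.59, 8.99 and 8.85 in the night pools and 8.94, 9.55, 9.80, 9.05, 9.56 and 9.91 in the day pools. For Hlf the curve peaked at CT 7.0, 0.16 ± 0.04 above its midline (SE, 12 pools; limma, adjusted p = 0.996). Of 16 P450 genes of the other families, among them enzymes of steroid, bile acid, vitamin D and retinoic acid metabolism, 0 passed in any fit, 4 lay above the 50th percentile, and the median amplitude was 0.07. In that group Cyp17a1 and Cyp8b1 differed by 0.20 and 0.18 between night and day and Cyp27a1 by -0.16, none past the adjusted threshold.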

How the data were processed

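Per the labels' protocols, biotin-labelled DNA, made from total RNA by random-primed whole-transcript amplification, was put on Affymetrix arrays. The authors deposited 1 log2 value per probe and pool. The submitters' processing notes name the tool affy, with no version. How background was corrected and arrays were normalized is not given in the sources used here, and the scale was read as log2 from the values, which span 3.48 to 14.47. No further scaling, floor or filter was applied.

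Of 34760 probes, 21640 have 1 gene symbol in the platform annotation, and the highest-mean probe was kept for each of 19937 genes. All 69 P450 genes were found in RefSeq by Entrez ID, 0 symbols changed, and 113 RefSeq genes match the rule by symbol. The 24 h fit (9 residual degrees of freedom), night minus day (6 pools against 6) and second minus first cycle (phase as a factor) were fitted over all genes with limma 3.58.1 in R 4.3.3, with Benjamini-Hochberg adjustment over all genes and a threshold of 0.05. The fits were tested on simulated data. Correlations over 12 pools used 100000 permutations. Python 3.11.15, pandas, numpy and matplotlib 3.10.9 were used for summaries and figures. The number of arrays limits the precision.

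The P450 genes, the marker lists and the pathway lists were chosen with earlier results of these data known. The text names each gene past the threshold, those in the top 5% of mean signal, the 6 with the smallest p in each fit, the 6 with the widest range, the dimmest and brightest, a few listed partners, and otherwise subfamilies by counts. Genes given beside these, such as Cyp4a12a, Cyp4a14, Cyp2b23, Cyp3a11 and the other bright ones, were named after their values were seen. The pools are numbered by cycle in order of time. Alternatives were quantile normalization, median centring, filters at the 25th and 50th percentile, averaging a gene's probes, array weights, a trended robust prior, a cycle block, a linear time term, 22 h and 26 h periods, phase as a factor, no phase term and leaving out each pool.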

Additional observations from a re-analysis of the deposited data

Results flagged for a closer look

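In the 23 named P450 genes the highest and lowest pool was set against the others of its 6 pools, separately for night, day, the second and the first cycle, with Dixon's ratio, the gap to the next pool over the whole range, at its 95% value for 6 samples. Of 92 such groups 9 held a pool that stood apart. Chance gives about 1 in 20 for independent groups, which these are not. Each pool enters both a night or day group and a cycle group, and genes were named partly for a wide range or a small p. No excess over chance is therefore read from this count. Among the day pools Cyp1a1 was high at CT48, with 10.20 against 10.00 for the next (ratio 0.637). Cyp1a2 was high at CT12 among the first-cycle pools (12.75, ratio 0.672). Cyp4a12b was low at CT52 among the second-cycle pools, with 10.45 against 10.90 for the next (ratio 0.821). Cyp2j12 was high at CT12 among the night pools (8.17, ratio 0.732) and at CT56 in the second cycle (8.23, ratio 0.677). Cyp2d10 was high at CT36 (7.84, ratio 0.638) and Cyp2c67 at CT56 (5.33, ratio 0.784), both within the second cycle. Cyp2r1 was low at CT12 among the night pools (5.17, ratio 0.673) and within the first cycle (ratio 0.755). The CT52 and CT56 arrays also had the lowest array weights, 0.47 and 0.33. A change of the 24 h curve between the cycles was tested as an interaction, and 0 of 69 P450s and 0 of 19937 genes passed. At an unadjusted p under 0.05 there were 1 of 69 P450s and 143 of 19937 genes.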

How the results depend on the processing

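In the 3 fits 0 of 69 P450s (or of the 34 and 18 left by the filters at the 25th and 50th percentile) passed the adjusted threshold under every alternative run, leaving out each pool included. The smallest adjusted p among the P450s lay between 0.147 (phase as a factor) and 0.997 for the 24 h fit, between 0.13 (array weights) and 0.618 for night minus day and between 0.0558 (array weights) and 0.388 for the cycles, and without single pools between 0.523 and 1.00, 0.201 and 0.852, and 0.0694 and 0.682. At an unadjusted p under 0.05 the 24 h fit gave 4 to 15 P450s, most with phase as a factor, where 16.9% of all genes also passed that p. Night minus day gave 3 to 15, with 15 both under array weights (23.9% of all genes) and without CT52 (20.9% of all genes), and the cycles 1 to 7. The 4 P450s in the top 5% of signal were 4 as well after quantile normalization and with the mean of all probes. The mean of all probes could not lower this count. Each P450 has 1 probe, and averaging cannot raise a gene that was kept by its highest probe. The 18 values of the genes with the smallest p in each fit kept their direction or, for peaks, stayed within 6 h. This held in all 369 combinations of gene and alternative setting that gave a value. These genes were chosen by p and the alternatives reuse most or all of the same pools, so this is no separate evidence. In the fit of the cycles, leaving out either pool of a phase gives the same result, so those settings count double. The comparison of the cycles pairs pools of the same phase through its phase term. For the other fits no paired analysis was possible because the labels give no replicate numbers that link pools across phases, and a block for cycle was run instead. The depth of an array is its signal over background, which is not known here, so dim P450s may be below detection, and 1 pool per time point cannot show differences between mice.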
